A study of Homo sapiens with 5 samples.

Results

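The 44 genes described here encode core proteins of the spliceosome and the SR proteins that guide it, and they were taken as a named list out of 20033 protein-coding genes of GENCODE 44. All 44 symbols were found in the annotation. The question was where MYC and HSF1 occupied these genes in OVCAR8 cells, and whether the same promoters carried both factors. OVCAR8 is an established cell line from a human ovarian carcinoma, and the study chose it as a line in which both the MYC and the HSF1 gene are amplified. The cells were untreated and proliferating in DMEM with 10% FBS at 21% O2 and 5% CO2, so every value comes from unstressed culture and there is no treated or depleted group. CUT&RUN uses an antibody to bring a nuclease to a DNA-bound protein, and the released fragments are sequenced. Each reaction held 500000 cells fixed with 1% formaldehyde for 1 minute. There were 2 libraries with an HSF1 antibody, 2 with a MYC antibody and 1 IgG control, which entered only as the background of the 4 peak lists.

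The spliceosome removes introns from pre-mRNA. The U1 snRNP pairs with the 5′ splice site, the U2 snRNP with its SF3A and SF3B proteins takes the branch point, and the U4/U6.U5 tri-snRNP then joins before the catalytic core forms. SR proteins bind exons and help recruit these particles. MYC binds DNA with its partner MAX, preferring the E-box CACGTG, and HSF1 binds as a trimer to inverted repeats of GAA, the heat shock element.

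The sequences below show where such motifs lay inside the peaks at these genes. Each is read on the strand of the gene named, in GRCh38, with the motif in capitals: the heat shock element GAANNTTCNNGAA or its reverse complement TTCNNGAANNTTC in the HSF1 peaks of TRA2B and SRSF9, the E-box CACGTG in the MYC peaks of the next 7 genes, and the E-box variant CACGCG, read as CGCGTG, in the MYC peak of SRSF1, the gene with the highest mean MYC fold enrichment.
TRA2B, chr3:185938255-185938314, minus strand, upstream of the gene: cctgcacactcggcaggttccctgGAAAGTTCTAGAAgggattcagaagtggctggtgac
SRSF9, chr12:120496664-120496693, minus strand, in an exon of DYNLL1: ctgcgtcctTTCTGGAAGCTTCtacgcccc
EFTUD2, chr17:44899678-44899707, minus strand, upstream of the gene: taacagcctgacCACGTGatctgcccgaag
SRSF6, chr20:43458274-43458333, plus strand, outside annotated exons: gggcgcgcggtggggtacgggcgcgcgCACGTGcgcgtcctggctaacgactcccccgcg
SNRPA, chr19:40750547-40750576, plus strand, in an exon of ACTMAP: ccattttgcgatCACGTGacagaaaacgca
SNRPC, chr6:34757039-34757098, plus strand, upstream of the gene: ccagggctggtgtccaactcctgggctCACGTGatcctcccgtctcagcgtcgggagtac
PRPF3, chr1:150321455-150321484, plus strand, reaching into the first exon of PRPF3: gccctccttggtCACGTGttgggagacagc
PRPF19, chr11:60906520-60906549, minus strand, in an exon of PRPF19: tgtccccattccCACGTGaagcgctacgct
U2AF2, chr19:55655270-55655329, plus strand, outside annotated exons: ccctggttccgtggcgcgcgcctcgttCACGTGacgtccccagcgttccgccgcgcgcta
SRSF1, chr17:58007366-58007395, minus strand, in an exon of an unnamed gene: gacgtcgCGCGTGcgtgCGCGTGcgctgaa

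A promoter peak was a called peak lying within 1000 bp of any annotated transcription start site of the gene. MYC promoter peaks were called at 41 of the 44 genes in replicate 1 and at 38 in replicate 2, against 55.3% and 41.2% of all protein-coding genes. Both lists held a MYC peak at 37 members (84.1%), beside 40.1% of all genes, and at least 1 list did so at 42 members (95.5%), beside 56.4%. HSF1 promoter peaks were called at 12 members in replicate 1 and at 9 in replicate 2, against 8.58% and 6.85% of all genes. Both HSF1 lists agreed on 4 members (9.09%), TRA2A, TRA2B, SRSF9 and SF3B3, beside 3.49% of all genes. At least 1 HSF1 list held a peak at 17 members (38.6%), beside 11.9%. In each list the share of members was above the share of all genes, which is a description of these lists without a test. Members had a median of 8 annotated start sites per gene (range 1 to 22) and all genes a median of 5, so a member offered more places for a peak to be counted. With the canonical start site alone, 37 members again had MYC peaks in both lists (36.5% of all genes), while 2 members, TRA2A and TRA2B, had HSF1 peaks in both (2.58% of all genes).

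**Figure D1:**
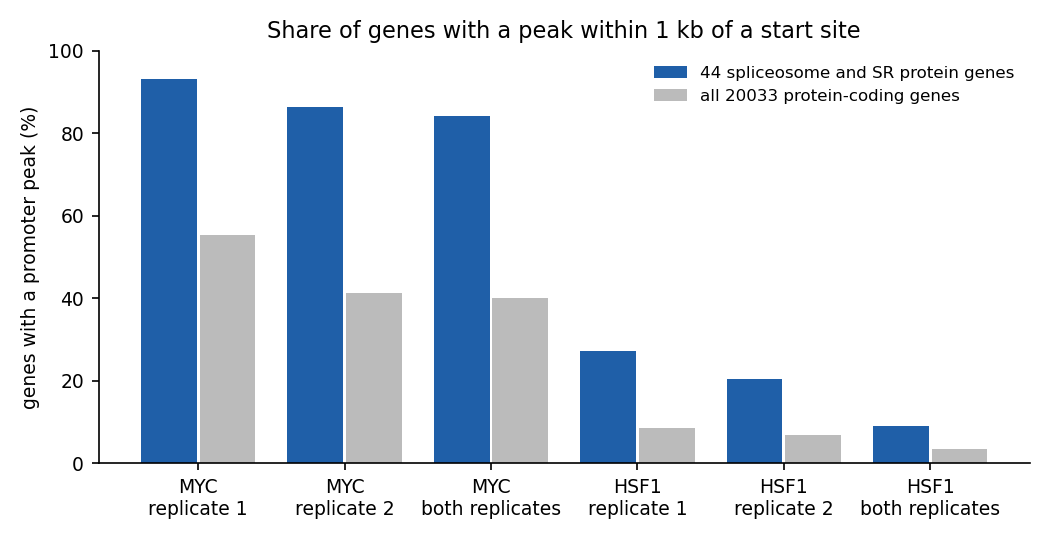
Bars give the percentage of genes with a promoter peak in each list and in both lists of a factor, for the 44 members and for all 20033 protein-coding genes. The members' bar is the higher of the pair throughout, from 93.2% against 55.3% in MYC replicate 1 to 9.09% against 3.49% for HSF1 in both lists.

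The MYC lists covered more members than the HSF1 lists, with a mean of 39.5 ± 2.12 members (SD, n = 2) against 10.5 ± 2.12 (SD, n = 2). The groups did not overlap, nor did they over all 20033 genes, at 55.3% and 41.2% for MYC and 8.58% and 6.85% for HSF1. The separation was thus not particular to the members. The difference of 29 members had p = 0.333 in an exact two-sided permutation test over the 4 libraries. This is the smallest p that 2 libraries against 2 can give, so 0.05 could not be reached. The lists were called at different thresholds, 1e-10 for MYC and 1e-04 for HSF1, and held 25623 and 13278 peaks for MYC and 6421 and 4459 for HSF1. Fragment totals were 8265647 to 10084407 in the antibody libraries, overlapping between HSF1 and MYC, and 9306942 with IgG. HSPH1, HSP90AB1 and DNAJB1 were taken as HSF1 controls with earlier results of these data known. Their HSF1 fold enrichments ran from 22.9 to 52.4 over both lists. They had MYC peaks from 20.7 to 37.9 as well, above their HSF1 values in replicate 1. ODC1, NCL and CDK4, taken as MYC controls in the same way, had MYC promoter peaks in both lists and no HSF1 promoter peak. The study shows CDK4 and ODC1 as bound by MYC alone, from these same data. The control genes are therefore no independent check.

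The height of a peak is given as the authors' fold enrichment, the fragment pileup at the summit over the local IgG background, and for a gene with several promoter peaks the highest was taken. Over the 37 members with a MYC peak in both lists, the median fold enrichment was 15.5 in replicate 1 and 14.8 in replicate 2. All 8024 genes with such peaks had medians of 16.7 and 11.9. Members were thus slightly lower than all genes in replicate 1 and higher in replicate 2. The ratio of replicate 1 to replicate 2 over the 37 members had a median of 1.08 and ran from 0.513 at SRSF10 to 2.84 at SNRNP40, with 36 of 37 members within 2-fold. SNRNP40, a WD-repeat protein of the U5 snRNP, was the exception at 21.8 and 7.68. As the highest peak was picked in each list separately, the ratios of SNRNP200, SF3B3 and SRSF9 compare peaks at different sites. For SNRNP200 the summits lay at -16308 bp in replicate 1 and -204 bp in replicate 2. The count within 2-fold has no share over all genes beside it.

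**Figure D2:**
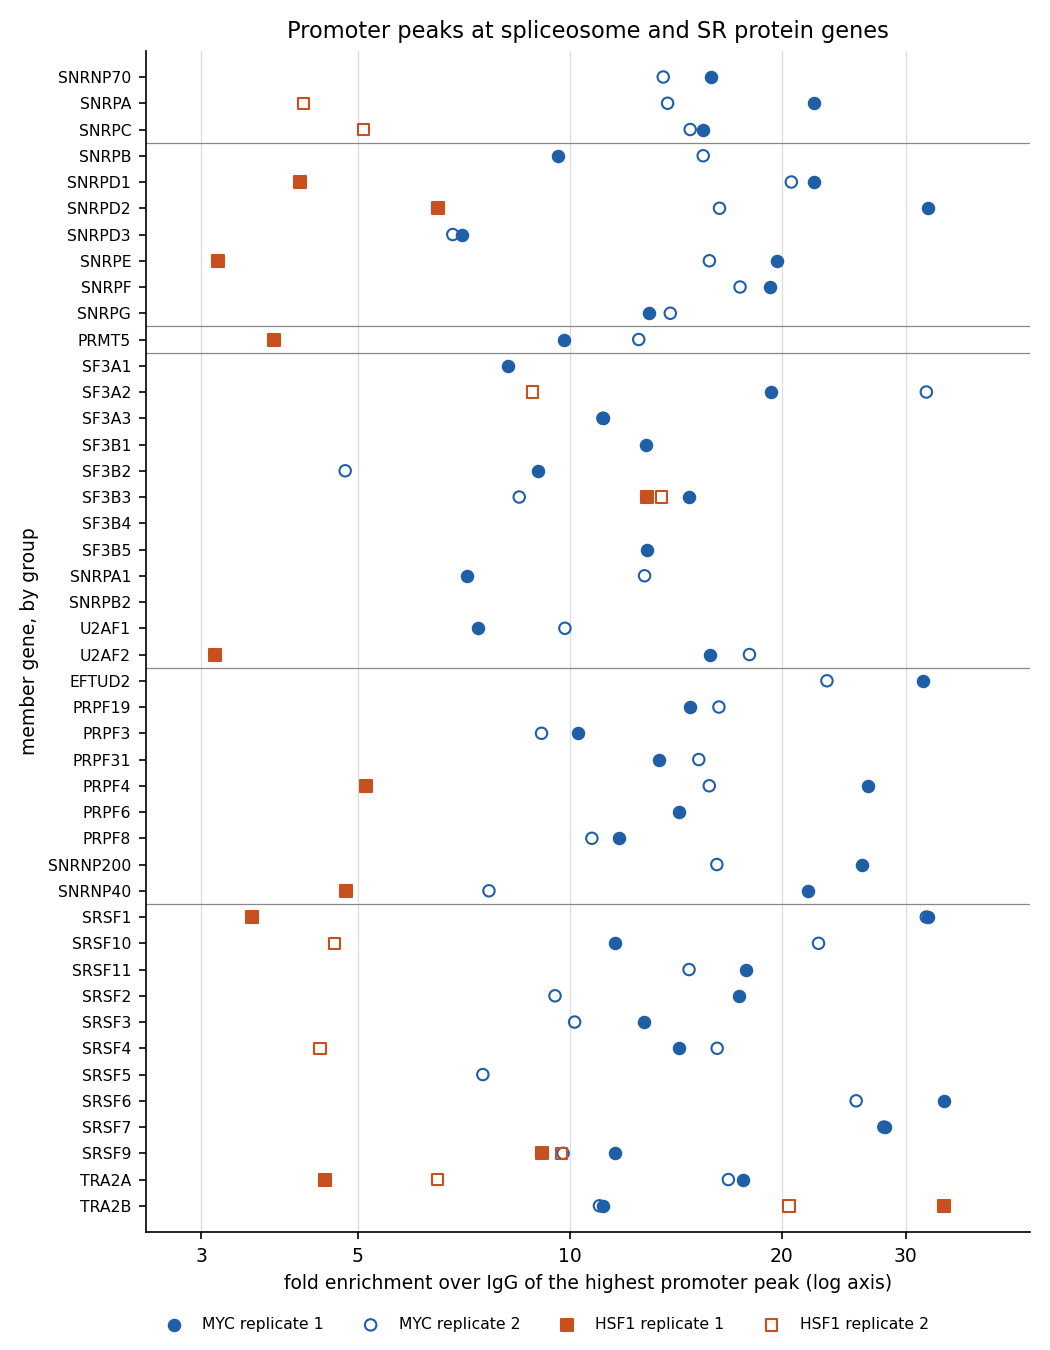
Each row is a member gene and each symbol the fold enrichment over IgG of its highest promoter peak in a list, on a log axis, with circles for MYC, squares for HSF1, filled for replicate 1 and open for replicate 2; lines separate the groups and a missing symbol means no called peak, and near-equal values cover each other. MYC symbols fill 42 of 44 rows, HSF1 symbols 17, and at TRA2B both HSF1 values, 34.0 and 20.5, lie to the right of both MYC values.

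All 3 members of the U1 snRNP had MYC peaks in both lists. SNRPA, a U1 protein that binds a stem-loop of U1 RNA, had fold enrichments of 22.2 and 13.8 in MYC replicates 1 and 2, and 4.19 in HSF1 replicate 2 alone. SNRPC, a U1 protein that steadies pairing with the 5′ splice site, had 15.5 and 14.8 for MYC and 5.10 in HSF1 replicate 2 alone. SNRNP70, the U1-70K protein, had 15.8 and 13.6 for MYC and no HSF1 peak. MYC values of the group thus ran from 13.6 to 22.2, and its HSF1 peaks appeared in a single list.

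The Sm proteins form the ring on which each snRNP is built, and all 7 genes had MYC peaks in both lists. SNRPD2 had the widest gap among them, at 32.3 and 16.3 for MYC, and 6.50 in HSF1 replicate 1 alone. SNRPD1 had 22.2 and 20.6 for MYC and 4.13 in HSF1 replicate 1 alone. SNRPE had 19.7 and 15.8 for MYC and 3.17 in HSF1 replicate 1 alone. These were the only Sm genes with an HSF1 peak. SNRPF followed with 19.2 and 17.5 for MYC and SNRPG with 13.0 and 13.9. SNRPB, which encodes the SmB and SmB′ proteins, had 9.63 and 15.5. SNRPD3 was the lowest of the ring at 7.03 and 6.82, and its summits lay 699 and 506 bp upstream of the canonical start. GUCD1, on the opposite strand, starts 861 bp from it. PRMT5, the arginine methyltransferase that modifies Sm proteins before snRNP assembly, had MYC fold enrichments of 9.81 and 12.5 and an HSF1 value of 3.80 in replicate 1 alone.

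The 12 genes of the U2 snRNP and of 3′ splice site recognition were the group with the lowest share of members with MYC peaks in both lists: 7 of 12 had them, and 10 had one in at least 1 list. SF3A2, a zinc finger protein of the SF3A complex, was highest, at 19.3 and 32.1 for MYC and 8.85 in HSF1 replicate 2 alone. U2AF2, the subunit that binds the polypyrimidine tract, had 15.8 and 18.0 for MYC and 3.14 in HSF1 replicate 1 alone. U2AF1, its partner at the AG of the 3′ splice site, had 7.41 and 9.84 for MYC, but the 1001 bases around its start have a copy of 99.5% identity elsewhere on chromosome 21, so reads could have been split and its heights are uncertain. SF3A3 gave 11.2 and 11.1, SNRPA1 7.14 and 12.8, and SF3B2 9.01 and 4.80, the lowest MYC value of any member. SF3B3 carried peaks of both factors, described below.

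SF3B1, the branch point protein that is mutated in several cancers, had a MYC peak of 12.8 in replicate 1 and none in replicate 2, where the closest peak lay 18541 bp from the canonical start. SF3A1 likewise had a MYC peak in replicate 1 alone, at 8.18, and SF3B5 at 12.9. None of these genes had an HSF1 promoter peak. SF3B4 and SNRPB2 were the members without a promoter peak in any of the 4 lists. The nearest MYC peak of replicate 1 lay 27390 bp from the start of SF3B4 and 154771 bp from that of SNRPB2. A missing peak was not called at this depth and threshold, which differs from a measured absence of the protein.

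Of the 9 genes of the tri-snRNP and of the PRPF19 complex, which stabilises the active spliceosome, 8 had MYC peaks in both lists and all 9 in at least 1. EFTUD2, the GTPase of the U5 snRNP, was highest at 31.8 and 23.2. PRPF4, a U4/U6 protein, had 26.5 and 15.8 for MYC and 5.13 in HSF1 replicate 1 alone. SNRNP200, the helicase that unwinds U4 from U6, had 26.0 and 16.2. The value of 26.0 came from an annotated start far upstream (summit at -16308 bp), 123 bp from a lncRNA start, and at the canonical start replicate 1 had 19.4. SNRNP40 had 4.81 in HSF1 replicate 1 alone. PRPF19, the ubiquitin ligase of that complex, gave 14.8 and 16.3, PRPF31 13.4 and 15.3, PRPF8 11.8 and 10.8, and PRPF3 10.3 and 9.12. PRPF6 had a MYC peak of 14.3 in replicate 1 and none in replicate 2. PRPF8 was thus among the lower values of its group.

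The 12 SR protein and TRA2 genes held the 3 members with the highest mean MYC fold enrichment and 3 of the 4 HSF1 calls made in both lists. SRSF1, which binds exonic enhancers and was first described as a factor that switches splice sites, had MYC fold enrichments of 32.3 and 32.1, a mean of 32.2 ± 0.148 (SD, n = 2). SRSF6 followed at 34.0 and 25.5 (29.7 ± 5.97, SD, n = 2) and SRSF7 at 28.1 and 27.9 (28.0 ± 0.104, SD, n = 2). These genes held ranks 1, 2 and 3 of the members by mean, and the spread of SRSF6 reached over both others, so its place among them is not resolved. SRSF1 was higher than SRSF7 in both lists. In single lists SF3A2 and SNRPD2 reached the height of SRSF1, with 32.1 in replicate 2 and 32.3 in replicate 1. A stretch of 247 bp at the SRSF6 start has a copy on chromosome 17 with 96.76% identity. The SRSF7 peaks were also counted for GEMIN6, a gene of snRNP assembly with the same MYC values of 28.1 and 27.9. They were thus not particular to SRSF7, although SRSF7 kept them when each peak was given to its nearest protein-coding start alone. EFTUD2, SF3A2 and SNRPD2 came next with means of 27.5 ± 6.07, 25.7 ± 9.05 and 24.3 ± 11.3 (SD, n = 2). SNRPD1, PRPF4, SNRNP200 and SNRPF completed the 10 highest with means of 21.4 ± 1.14, 21.2 ± 7.60, 21.1 ± 6.96 and 18.3 ± 1.26 (SD, n = 2). At its canonical start alone SNRNP200 had a mean of 17.8 ± 2.26 (SD, n = 2), below the 18.0 ± 5.97 (SD, n = 2) of SNRPA, and would not be among the 10. From EFTUD2 to SNRNP200, each neighbouring pair in this order differed by less than the larger of its SDs.

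SRSF10 had 11.6 and 22.6 for MYC and 4.64 in HSF1 replicate 2 alone. The nearest HSF1 peak of replicate 1 lay 4447 bp from its canonical start. SRSF4 had 14.3 and 16.2 for MYC and 4.42 in HSF1 replicate 2 alone. SRSF1 had an HSF1 peak of 3.54 in replicate 1 alone. SRSF2, which binds exonic enhancers in both constitutive and regulated exons, had 17.4 and 9.53 for MYC and no HSF1 peak. SRSF3, the smallest SR protein, had 12.8 and 10.2 and no HSF1 peak. SRSF11 had 17.8 and 14.8, at summits 248 and 245 bp from the start of LRRC40, whereas the canonical start of SRSF11 had 13.8 and 8.09. SRSF5 was the only member with a MYC peak in replicate 2 alone, at 7.53.

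**Figure D3:**
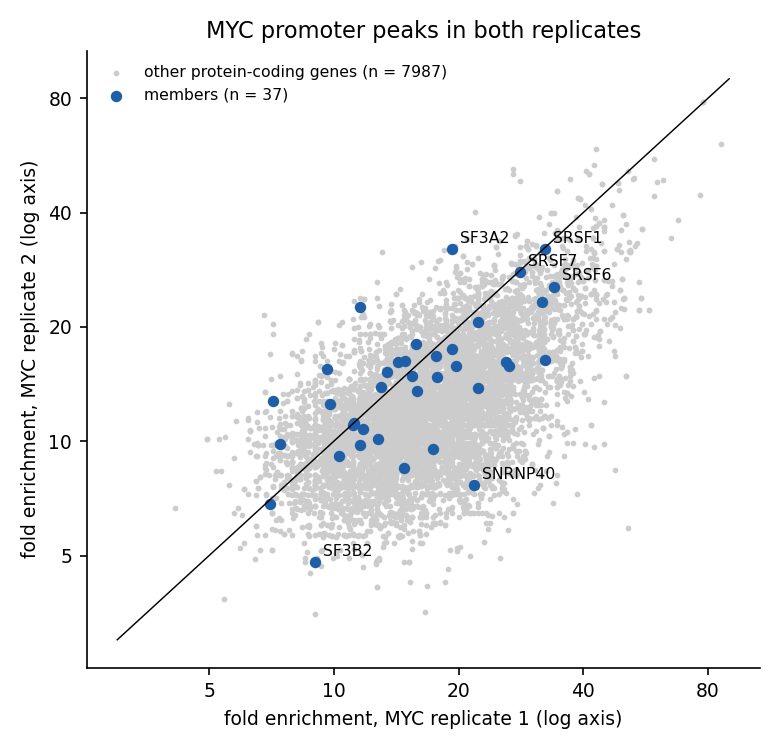
Each point is a gene with a MYC promoter peak in both lists, placed by the fold enrichment of its highest peak in replicate 1 and replicate 2. These can be peaks at different sites of a gene. Axes are log, with the 37 members in blue, 7987 other genes in grey and the line of equal values. Members lie within the cloud of other genes, SRSF1 and SRSF7 on the line, SF3A2 above it and SNRNP40 and SF3B2 below it.

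HSF1 was called in both lists at 4 members, and these fell into 2 kinds by position. At TRA2B and TRA2A, the transformer-2 proteins that bind GAA-rich exonic enhancers, the peaks lay at the canonical start. TRA2B had HSF1 fold enrichments of 34.0 and 20.5 (27.2 ± 9.56, SD, n = 2) with pileups of 88 and 40 fragments, above 99.7% and 96.9% of the peaks of their lists. Its MYC values were 11.1 and 11.0 (11.1 ± 0.0905, SD, n = 2), above 42.2% and 55.1% of theirs. Only TRA2A and TRA2B had HSF1 peaks in both lists at the canonical start. Of these, TRA2B alone had both HSF1 values above its MYC values, which come from a different antibody. The HSF1 summits lay 306 and 150 bp upstream of the start and the MYC summits 711 and 224 bp downstream, 1017 and 374 bp apart in replicates 1 and 2, although the intervals overlapped in all 4 list pairs. MYC replicate 1 had a further peak of 6.48 with its summit 2151 bp downstream. The heat shock element printed above is centred 270 bp upstream of the canonical start and 36 bp from the HSF1 summit of replicate 1. It lay more than 100 bp from the HSF1 summit of replicate 2.

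TRA2A had the opposite order, with HSF1 at 4.49 and 6.49 (5.49 ± 1.41, SD, n = 2) and MYC at 17.6 and 16.8 (17.2 ± 0.599, SD, n = 2). Its HSF1 summits lay 220 and 246 bp upstream of the start, within 48 and 23 bp of the MYC summits of the same replicate numbers. The HSF1 peaks were 202 and 216 bp long, against 589 and 630 bp for MYC. No heat shock element of the form searched was found in its highest HSF1 peak. Between these paralogs, HSF1 was higher at TRA2B and MYC at TRA2A in every list.

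At SRSF9 and SF3B3 the HSF1 peaks of both lists were counted through annotated alternative starts far from the canonical one. For SRSF9, HSF1 reached 9.14 and 9.74 at summits at -26841 and -26759 bp, which lie 476 and 394 bp from the start of DYNLL1, a dynein light chain gene on the other strand. MYC peaks of 8.73 and 9.78 were called there too, and the canonical start of SRSF9 had MYC peaks of 11.6 and 8.92 and no HSF1 peak. The heat shock element printed for SRSF9 lies in an exon of DYNLL1. For SF3B3, HSF1 reached 12.9 and 13.5 at summits 53676 and 53775 bp downstream of the canonical start, 178 and 79 bp before the annotated end of the gene. The edges of these peaks came within 1000 bp of an annotated start, but their summits lay 1191 and 1290 bp from it. HSF1 replicate 1 had a further peak of 3.82 with its summit 345 bp from that start, and replicate 2 had no further peak. SF3B3 was therefore not counted in both lists when the summit itself had to be within 1000 bp, as replicate 2 was lost. MYC replicate 1 had a peak of 14.8 there and replicate 2 none, whereas the canonical start had MYC values of 10.5 and 8.48 in the 2 lists. By position, then, none of these HSF1 peaks lay at the canonical start of the gene it was counted for.

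**Figure D4:**
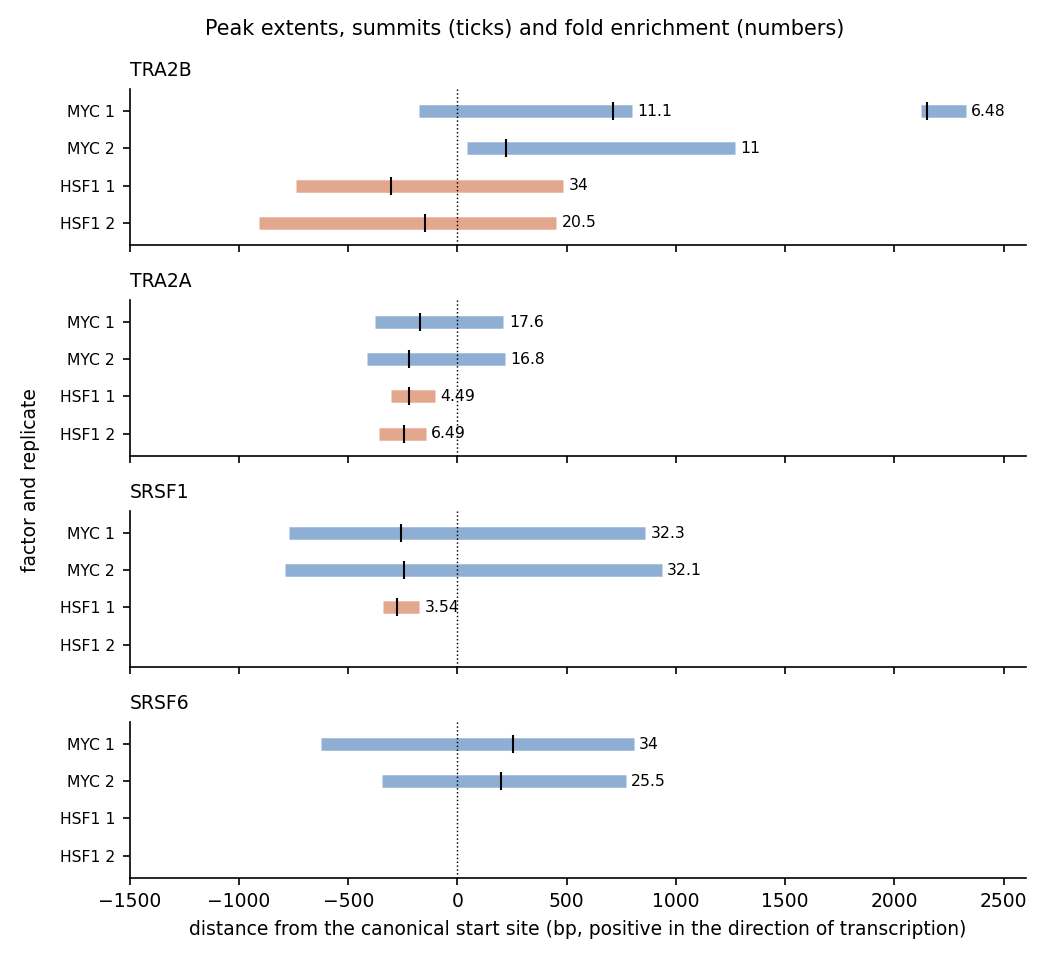
Bars show the extent of each called peak around the canonical start site (0 bp, dotted) of TRA2B, TRA2A, SRSF1 and SRSF6, per factor and replicate, with ticks at the summits and the fold enrichment beside each bar. The HSF1 peaks of TRA2B are as broad as its MYC peaks and shifted upstream, those of TRA2A and SRSF1 are short and lie inside the MYC peaks, and SRSF6 has MYC peaks only.

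The other 13 HSF1 members were called in a single list, 8 in replicate 1 and 5 in replicate 2, which is 29.5% of members beside 8.45% of all genes. Their fold enrichments ran from 3.14 at U2AF2 to 8.85 at SF3A2, with a median of 4.42. They lay above 3.33% (U2AF2) to 84.9% (SF3A2) of the peaks of their lists, with pileups from 6 fragments at SNRPD1 to 14 at SF3A2. The −log10 p-values of the peak calls ran from 4.06 at SNRPE, close to the threshold of 4, to 14.8 at SF3A2. At the canonical starts, 17 pairs of a MYC and an HSF1 peak of the same replicate number could be formed, and their summits lay a median of 65 bp apart, from 9 bp at PRPF4 to 1017 bp at TRA2B. Both peaks of a pair had to lie within 1000 bp of the same start, which itself limits the gap. No gap over all genes stands beside it. In all 17 members with any HSF1 promoter peak, that peak overlapped a MYC peak in at least 1 pair of lists. Of all genes, 10.7% had such an overlap out of 11.9% with any HSF1 promoter peak, so overlap in some pair was usual for genes with HSF1 peaks and not particular to the members. Overlap in all 4 list pairs was found at 3 members (6.82%), TRA2A, TRA2B and SRSF9, beside 2.53% of all genes. All 4 lists were called against the same IgG library, and its part in this overlap was not tested.

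For the positions of MYC summits, only peaks within 1000 bp of the canonical start were taken, which itself keeps the summits near it. The counts below have no share over all genes beside them and are a description. Over the 37 members with peaks in both lists, 61 of 74 summits were within 300 bp of the canonical start. The summits of the 2 replicates lay a median of 85 bp apart, at most 603 bp, at SRSF10. The median position was 144 bp upstream in replicate 1 and 95 bp downstream in replicate 2. At 10 members the summit was upstream in replicate 1 and downstream in replicate 2, and at 1 member the reverse. PRPF19 was of the first kind, with summits at -124 and 140 bp, and SNRPA1 was the reverse case, at 303 and -281 bp. PRPF31 had the closest replicate summits, 2 bp apart at -209 and -207 bp.

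**Figure D5:**
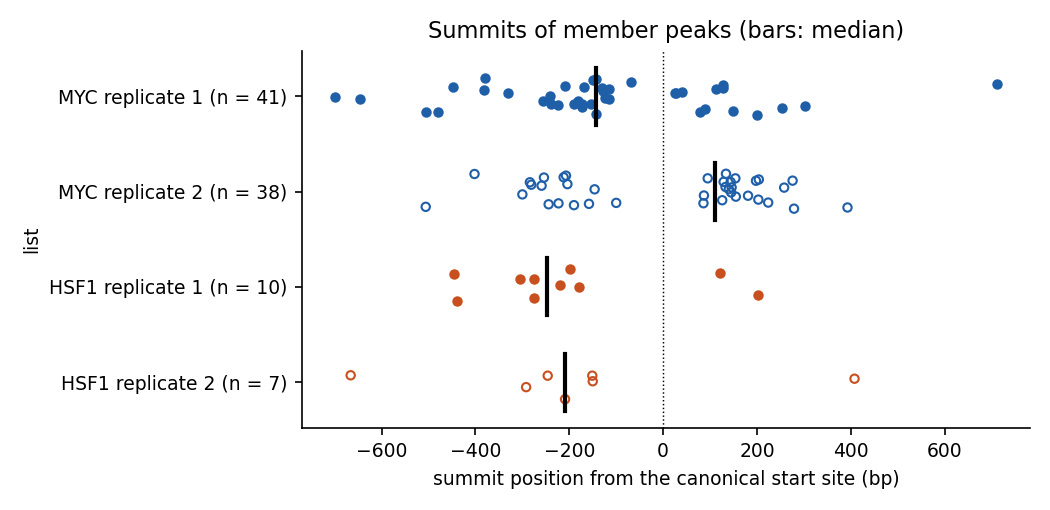
Each point is the summit of a member's highest peak at the canonical start, by its distance in bp (negative upstream), with a row per list, vertical scatter for visibility and a bar at the median. Medians are -144 bp for MYC replicate 1 (n = 41), 110.5 bp for MYC replicate 2 (n = 38), -247.5 bp for HSF1 replicate 1 (n = 10) and -209 bp for HSF1 replicate 2 (n = 7).

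Members often faced a neighbouring gene. At 11 of the 44 (25%) the canonical start lay within 1000 bp of the start of a protein-coding gene on the opposite strand, beside 10% of all protein-coding genes. The closest were PRPF4 and CDC26, 86 bp apart, PRPF31 and TFPT, 97 bp apart, and SF3A1 and CCDC157, 113 bp apart. The others were SNRNP40, SF3B3, EFTUD2, SF3A2, SNRPD2, SNRPA, SRSF2 and SNRPD3. A peak at such a promoter cannot be assigned to either gene from its position. When each peak was given to its nearest protein-coding start alone, 28 members kept MYC peaks in both lists, beside 33% of all genes under that rule, and EFTUD2, SF3A2, PRPF4, SRSF6 and SRSF9 were among the 9 that did not.

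E-boxes were not frequent at these summits. The E-box lay within 100 bp of the MYC summit at 1 of 37 members (2.70%), PRPF19, beside 8.09% of the 8024 genes with MYC peaks in both lists. Anywhere in the highest peak, it was found at 7 members (18.9%), the 7 whose sequences are printed above, beside 30.9% of genes. The E-boxes of EFTUD2 and SNRPC lay 103 and 107 bp upstream of the summit, just outside that window. The variant CACGCG, searched on both strands, cannot overlap CACGTG but can overlap its own reverse complement. It was within 100 bp of the summit at 6 members (16.2%), beside 14.8% of genes, and in the peak at 16 (43.2%), beside 42.6%. At SRSF1, whose MYC pileups of 103 and 118 fragments were the highest of the members, the variant was centred 85, 129 and 139 bp upstream of the start, the last 2 in the sequence printed above, and no CACGTG lay in the peak. Median GC content of the summit windows was 61.7% at members and 66.2% at all genes.

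The heat shock element lay in the highest HSF1 peak of 2 of the 4 members called in both lists, TRA2B and SRSF9, beside 20.3% of 699 genes. Within 100 bp of the summit of that peak it lay at TRA2B, beside 6.87%. By list, it lay that close to the summit at 2 of the 4 members in replicate 1, beside 11% of genes. In replicate 2 it did so at 0 members, beside 5.87%. Of all 17 members with an HSF1 peak, the same 2 held it in their highest peak. In the RefSeq promoters of GRCh38, 250 bases before to 50 after each start, 39 members matched by symbol. There the E-box occurred at EFTUD2 and SF3B1 (5.13% of members, 8.89% of 15345 promoters), the variant at 12 members (30.8%, against 14.9%) and the heat shock element at none (0.358% of promoters). For TRA2B, the element at -270 bp lies beyond these 300 bases.

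Other splicing genes gave a setting for the members. Of all genes, 40.1% had MYC peaks in both lists and 3.49% had HSF1 peaks in both. The counts below stand beside these shares without a test. Of 21 hnRNP genes, which encode RNA-binding proteins that often act against SR proteins, 20 had MYC peaks in both lists and 4 had HSF1 peaks in both, HNRNPA1, HNRNPA2B1, HNRNPF and HNRNPK. HNRNPA2B1 had HSF1 at 29.1 and 15.8 and MYC at 15.8 and 20.2, while the other 3 had HSF1 values of 3.25 to 7.15. Of 36 further spliceosome components, 19 had MYC peaks in both lists and 1 had HSF1 peaks in both, SLU7, a second-step factor, with HSF1 at 4.81 and 4.60. Of 9 spliceosomal helicases, 6 had MYC peaks and 1 had HSF1 peaks in both lists, DDX42, a U2-associated helicase, with HSF1 at 4.75 and 5.72 and MYC at 77.8 and 78.1, above every member. Of 11 SR protein kinases and coactivators, 9 had MYC peaks and 1 HSF1 peaks in both lists, CLK4, at 3.44 and 5.41 for HSF1. Among 8 LSm genes the numbers were 2 and 1, the latter LSM2 at 5.66 and 9.73 for HSF1, and among 15 genes of snRNP assembly they were 11 and 0. After DDX42, the highest MYC means of these genes were 45.9 at HNRNPH3 and 33.6 at RIOK1, an adaptor of PRMT5. Within these lists, 3 genes thus exceeded the mean of SRSF1. Genes beyond these lists also lay above it, among them COA7 at 52.7 and 49.1.

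Outside the promoter windows, 2 members had a peak in the gene body, both in MYC replicate 1 alone. SF3A3 had a peak of 15.2 and SNRNP200 one of 6.57. No HSF1 peak was called in the body of a member outside these windows. The SF3B3 peaks described above lay near the end of the gene and counted as promoter peaks by their edges alone. Their summits were 1191 and 1290 bp from the nearest annotated start.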

How the data were processed

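Peak lists from CUT&RUN of OVCAR8 cells were used, 2 HSF1 and 2 MYC libraries. Reads were demultiplexed with bcl2fastq 2.20.0, aligned by the authors to GRCh38/hg38 with Bowtie 2, and peaks were called with MACS 2.2.9.1 on each library against the same IgG library, which the file headers number replicate 2 and the labels leave unnumbered. The p-value threshold was 1e-04 for HSF1 and 1e-10 for MYC, duplicates were kept once, and the larger library was scaled to the smaller. Of the deposited columns, 3 were used: −log10 p-value, pileup (a fragment signal) and fold enrichment (the ratio of that signal to local IgG). The q-value column was not used. The study's methods state biological replication for its laboratory experiments in general, at a number above the 2 libraries per antibody here and without naming CUT&RUN. Whether these libraries came from separate cultures is therefore not settled, and their spread may be technical. The replicate lists shared 8 identical MYC and 2 identical HSF1 intervals, and 0 peaks ended past their GRCh38 sequence.

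From these values, peaks within 1000 bp of GENCODE 44 start sites were joined to genes (Python 3.11.15, pandas 2.3.3, numpy 2.4.6). Motifs were searched on both strands of GRCh38, and start regions (500 bp either side) were searched for copies with minimap2 2.31. No model across genes was fitted, since the lists hold no counts. Calls were tested on simulated lists, where 200 of 200 planted genes were recovered in each of 5 runs. Full values were given for members with any HSF1 peak, the 10 highest by MYC, those lacking a MYC peak in a list, and PRMT5, SRSF1, SRSF2, SRSF3, SF3B1, U2AF1, SNRPB and SNRPD3. Members, control genes, lists and alternatives were chosen with earlier results of these data known. Alternatives changed the window, the start sites, the thresholds, the gene assignment, the combination of replicates and the motif window.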

Additional observations from a re-analysis of the deposited data

How the results depend on the processing

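MYC peaks in both lists were found at 37 members and at 28 to 42 under the alternatives, with 31 at 1e-20 and 38 to 41 in single lists. HSF1 peaks in both lists, at 4 members, moved to 7 with a window of 5 kb (SF3B2, PRMT5 and SRSF10 added), to 2 with canonical starts alone (without SF3B3 and SRSF9), to 17 in the union, and to 9 without HSF1 replicate 1 and 12 without HSF1 replicate 2. At 1e-10 for HSF1, 3 were left, without TRA2A, and SF3B3 was lost with a window of 0.5 kb or the summit within 1 kb (3 members each). Overlap of both factors, at 3 members, moved to 17 in the union, to 8 without replicate 1 and 12 without replicate 2 of each factor, and to 1 with summits at most 200 bp apart. With canonical starts alone, an alternative chosen after seeing the data, it was 2. The median MYC fold enrichment of 15.2 was 14.8 and 15.5 in single lists, and as pileup the median was 39 fragments. The E-box count of 1 became 7 in whole peaks, 7 with CACGTG or CACGCG, and 2 without MYC replicate 1 and 0 without MYC replicate 2. The difference of 29 members between factors was 36 with HSF1 at 1e-10, also chosen after seeing the data, and kept its direction. In all, 18 of 32 alternatives stayed within 1.5 times the reported value. The cause of the changes was not tested. No paired analysis was possible because the counts come from no model and same-numbered HSF1 and MYC lists are not stated to share a culture. Of the 17 HSF1 members, 13 were called in a single list, and depth was not varied, so what limits these calls was not tested.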
